A study of Mus musculus with 12 samples.

Results

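The genes described here are 10 transcription factors that mark granule cell progenitors (GCPs) or act as proneural and neuronal differentiation factors in the cerebellar granule lineage: *Atoh1*, *Neurod1*, *Neurod2*, *Zic1*, *Zic2*, *Pax6*, *Barhl1*, *Nhlh1*, *Nhlh2* and *Insm1*. They were chosen by gene symbol, and the 10 symbols gave 10 of the 24091 genes of the expression table. RNA sequencing covered 12 mouse libraries in 4 groups of 3, from 9 mice. Tumor libraries were medulloblastomas (MBs) of mice GB344, GB359 and GB370, labelled Brca2-mut;Trp53-mut, and adjacent libraries were cerebellum taken beside the tumor in the same 3 mice. Control libraries were tumor-free cerebellum of Brca2-mut;Trp53-WT mice GB361, GB508 and GB512 and of Brca2-WT;Trp53-mut mice GB517, GB519 and GB520.

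Brca2-mut is a deletion of *Brca2* exons 3 and 4 by an hGFAP-Cre transgene, whose promoter is active in the developing central nervous system and is therefore not limited to granule cells. Trp53-mut is a knockout of *Trp53* in the whole animal. Tumors and adjacent tissue carried both alterations and each control genotype carried 1 of them, so the tumor state and the double-mutant genotype cannot be told apart in any comparison with the controls. The study gives the controls as adults matched to the tumors in age, with no day stated for these libraries, and mice with tumors were taken at tumor formation or a humane endpoint. Expression is given as TPM, an abundance of transcripts corrected for their length and for the size of the library, so that levels can be set side by side between genes. Sequencing depth cannot be read from TPM, and a single value has no error of its own. The spread among mice describes a group of libraries. Wherever 3 tumor or 3 adjacent values are listed, they follow the order GB344, GB359, GB370.

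Granule neurons arise from GCPs of the external granule layer, which divide in response to Sonic hedgehog (SHH) released by Purkinje cells. Dividing GCPs express ATOH1, a basic helix-loop-helix (bHLH) factor that pairs with E proteins and binds E-boxes. As the cells leave the cycle and migrate inward, ATOH1 is lost, NEUROD1 and then other differentiation factors take over, and ZIC and PAX6 proteins are present across much of the lineage. MBs of the SHH subgroup are known to arise from this lineage.

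Adult controls already expressed some of these factors at high levels and others hardly at all. In the 6 controls, *Zic1*, *Neurod1*, *Zic2*, *Neurod2* and *Pax6* followed each other in that order of mean TPM, with ranges that did not overlap. *Zic1* ranked 192 of 24091 genes by mean control TPM, *Neurod1* 357, *Zic2* 569, *Neurod2* 1342 and *Pax6* 3083. *Barhl1* and *Nhlh2* came next, at ranks 10098 and 10243, with ranges that overlapped. *Insm1* lay below them in every control, and *Nhlh1* and *Atoh1*, whose ranges overlapped, were last at ranks 18484 and 19038.

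The promoters of 5 bHLH members are shown because their genes took different paths in the tumors: *Atoh1*, *Nhlh1* and *Nhlh2* were raised, *Neurod2* was lowered and its paralog *Neurod1* did not pass the test. Each line gives 250 bases before to 50 bases after a RefSeq start site of GRCm38.p6 (mm10), 5′ to 3′ on the strand of the gene. Capitals mark E-boxes, searched as CANNTG on both strands, which bHLH dimers bind.

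Atoh1, chr6:64728875-64729174, plus strand: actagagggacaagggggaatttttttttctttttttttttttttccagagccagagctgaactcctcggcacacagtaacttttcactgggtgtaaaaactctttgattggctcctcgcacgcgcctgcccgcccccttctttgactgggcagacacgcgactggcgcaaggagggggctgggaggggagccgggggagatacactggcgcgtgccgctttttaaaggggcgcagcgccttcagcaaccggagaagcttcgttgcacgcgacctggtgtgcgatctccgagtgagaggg
Nhlh1, chr1:172057547-172057846, minus strand: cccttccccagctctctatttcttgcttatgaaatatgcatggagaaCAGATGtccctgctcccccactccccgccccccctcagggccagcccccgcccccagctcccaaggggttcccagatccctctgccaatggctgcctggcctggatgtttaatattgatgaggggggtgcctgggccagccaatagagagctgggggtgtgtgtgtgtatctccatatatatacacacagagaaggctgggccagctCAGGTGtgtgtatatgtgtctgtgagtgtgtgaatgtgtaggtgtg
Nhlh2, chr3:102009895-102010194, plus strand: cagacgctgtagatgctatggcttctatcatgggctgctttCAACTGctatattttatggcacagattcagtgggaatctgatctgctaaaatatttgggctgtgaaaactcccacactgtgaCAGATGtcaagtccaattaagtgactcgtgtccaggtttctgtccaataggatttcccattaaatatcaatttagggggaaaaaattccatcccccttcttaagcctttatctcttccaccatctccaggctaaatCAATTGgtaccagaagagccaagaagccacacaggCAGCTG
Neurod1, chr2:79456587-79456886, minus strand: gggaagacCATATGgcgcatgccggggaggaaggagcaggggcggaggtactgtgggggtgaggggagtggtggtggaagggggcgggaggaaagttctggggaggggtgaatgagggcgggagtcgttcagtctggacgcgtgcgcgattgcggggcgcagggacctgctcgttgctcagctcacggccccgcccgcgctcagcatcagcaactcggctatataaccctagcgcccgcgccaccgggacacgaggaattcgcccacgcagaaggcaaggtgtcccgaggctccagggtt
Neurod2, chr11:98329596-98329895, minus strand: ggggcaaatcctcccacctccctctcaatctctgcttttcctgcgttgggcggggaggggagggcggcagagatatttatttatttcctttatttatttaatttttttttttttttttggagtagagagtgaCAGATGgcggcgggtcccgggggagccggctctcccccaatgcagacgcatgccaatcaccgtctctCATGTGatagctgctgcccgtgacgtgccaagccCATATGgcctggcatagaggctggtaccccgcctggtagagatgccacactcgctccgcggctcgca

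The *Nhlh2* window held 4 E-boxes, that of *Neurod2* 3, that of *Nhlh1* 2 and that of *Neurod1* 1, and the *Atoh1* window held 0. An E-box was present in 72.3% of 32851 RefSeq promoters of the same length, with a median of 1 per promoter. CAGATG, 1 form of the E-box, occurred in the windows of *Neurod2*, *Nhlh1* and *Nhlh2* and in 17.2% of all promoters. RefSeq windows were matched for 8 of the 10 members, with a second start site for *Barhl1* and *Pax6*, and *Zic2* and *Insm1* had no entry. These matches describe the letters only, since binding was not measured.

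Across the series, replicates of a group had correlations of 0.974 to 0.991 over log2(TPM + 1), and 15088 to 15803 genes per library reached 1 TPM. The labelled tissue was checked by marker lists. The summed TPM of 4 granule cell markers (*Gabra6*, *Cbln3*, *Cbln1* and *Grm4*) was 2059 to 2642 in the controls, 1583 to 2211 in adjacent cerebella and 86.0 to 328 in tumors. The summed TPM of 10 proliferation genes was 980.0 to 999 in tumors and 8.25 to 58.7 in controls, with the highest control value in GB512. In adjacent cerebella it was 424 in GB344, 243 in GB359 and 34.5 in GB370, so the adjacent libraries stood apart from each other and, for GB344 and GB359, from all controls. Where leaving out 1 library changed a call that rests on them, this is said beside the result.

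The groups were compared by limma after log2(TPM + 1) transformation. To be called, a gene needed a log2 fold change of 1 or more in size together with a Benjamini-Hochberg adjusted p below 0.01. For genes close to 0 TPM, this scale understates the ratio of the TPM. In bulk tissue, fewer cells of a type and less RNA per cell cannot be told apart.

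**Figure D1:**
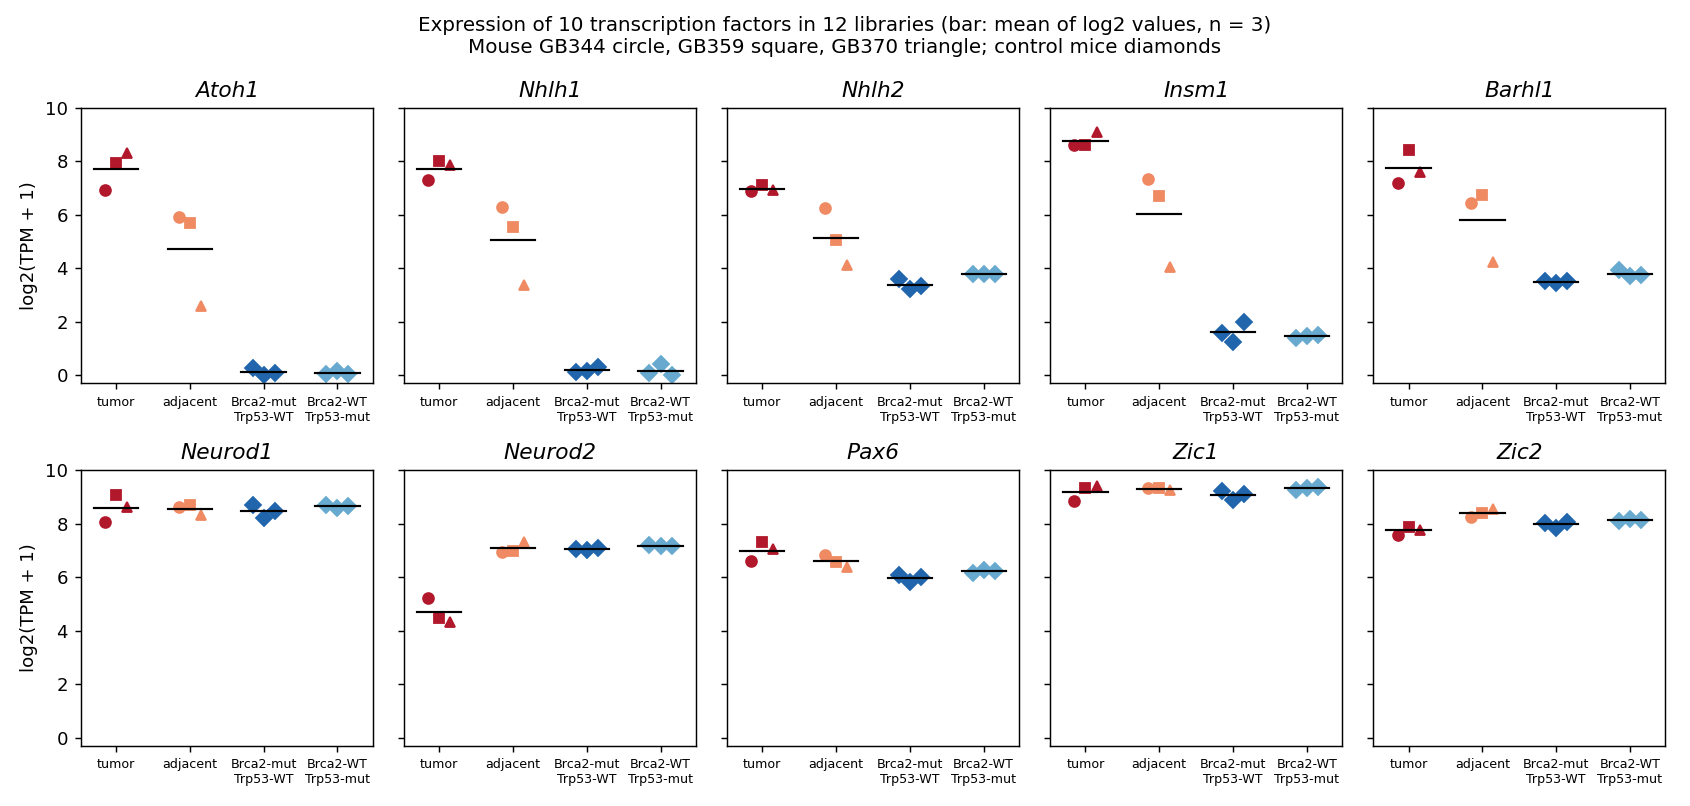
Each panel plots log2(TPM + 1) of 1 transcription factor in 12 libraries by group, with mice GB344, GB359 and GB370 marked by a circle, a square and a triangle and control mice by diamonds. Bars are means of 3 libraries. In the upper row the tumors lie above all other libraries and the adjacent cerebella lie between tumors and controls, and in the lower row *Neurod2* lies lower in all 3 tumors than in any other library, and *Zic2* lower in all 3 tumors than in any adjacent cerebellum.

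The comparison of tumors with the 6 controls asked which of these factors differ between MB and adult cerebellum. *Atoh1*, *Nhlh1*, *Insm1*, *Barhl1* and *Nhlh2* were called higher, *Neurod2* was called lower, and *Pax6*, *Zic2*, *Neurod1* and *Zic1* were not called. Over all 16241 genes tested, 14.4% were called higher and 21.5% lower. *Atoh1* and *Nhlh1* were below 1 TPM in all 6 controls and entered the test through the tumors, so they had to differ. Of the other 8 members, 3 were called higher and 1 lower, with a median log2 fold change of 0.45 against −0.11 over all genes tested.

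*Atoh1* (Entrez 11921, chr6:64729125-64731245, mm10) is the bHLH factor that specifies granule neurons and holds GCPs in a dividing state. Tumor GB344 had 119 TPM, tumor GB359 244 and tumor GB370 319. It was 0.212, 0 and 0.0689 TPM in Brca2-mut;Trp53-WT controls GB361, GB508 and GB512 and 0.0400, 0.132 and 0.0384 TPM in Brca2-WT;Trp53-mut controls GB517, GB519 and GB520. Every tumor was far above every control, and tumor GB344 was the lowest of the tumors. The log2 fold change of 7.61 (SE 0.25, limma adjusted p = 1.01e-08) ranked 1 of all genes tested, on a scale that understates it.

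*Nhlh1* (Entrez 18071, chr1:172052292-172057596) encodes a bHLH factor of young postmitotic neurons. It had 156, 256 and 232 TPM in the tumors. In the controls its TPM ranged from 0 to 0.325 with a median of 0.105, and GB520 was listed at 0. The groups were as far apart as for *Atoh1*, and the log2 fold change of 7.54 (SE 0.17, limma adjusted p = 3.16e-09) ranked 2. Its paralog *Nhlh2* (Entrez 18072, chr3:102010111-102015492), which also acts in hypothalamic neurons, was present in the controls at 8.36 to 12.7 TPM with a median of 11.9. In tumors *Nhlh2* had 117, 137 and 119.9 TPM, the narrowest spread of the raised members, with a mean of 125 ± 10.7 (SD, n = 3). All tumors lay above all controls, with a log2 fold change of 3.39 (SE 0.14, limma adjusted p = 2.63e-08). The TPM ratio of *Nhlh1* to *Nhlh2* was 1.33 to 1.93 in tumors and at most 0.0280 in controls.

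*Insm1* (Entrez 53626, chr2:146221997-146225020) encodes a zinc finger repressor that promotes the birth of neurons from dividing progenitors. It had 387, 389.5 and 544 TPM in the tumors, where it was 2nd among the members by mean TPM. In controls it was 1.40 to 2.96 TPM with a median of 1.80, and the highest control was GB512, the control with the highest proliferation sum. The ranges did not overlap, and the log2 fold change was 7.24 (SE 0.17, limma adjusted p = 3.47e-09), rank 5 of all genes tested. *Barhl1* (Entrez 54422, chr2:28907680-28917984) encodes a homeodomain protein that follows ATOH1 in granule neurons and supports their migration and survival. Its tumor levels spread more widely, with 146, 341 and 189.8 TPM in GB344, GB359 and GB370, against 9.89 to 14.1 TPM in controls. The lowest tumor was still above every control, and the log2 fold change was 4.08 (SE 0.23, limma adjusted p = 9.97e-08).

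*Neurod1* and *Neurod2* encode closely related bHLH factors of differentiating and mature granule neurons, and they parted in the tumors. *Neurod2* (Entrez 18013, chr11:98325415-98329645) had 36.5, 21.2 and 19.1 TPM in the tumors. In Brca2-mut;Trp53-WT controls it had 131, 128 and 135 TPM, and in Brca2-WT;Trp53-mut controls 147, 141 and 142 TPM. Every tumor lay below every control, and *Neurod2* fell by 2.43 on the log2 scale (SE 0.17, limma adjusted p = 4.13e-07). *Neurod1* (Entrez 18012, chr2:79452637-79456636) had 262, 533 and 391 TPM in the tumors. In controls it was 297 to 418 TPM with a median of 392. Tumors GB344 and GB359 lay below and above the whole control range, and the log2 fold change was 0.01 (SE 0.19, limma adjusted p = 0.951). The tumor with the most *Neurod2*, GB344, was the tumor with the least *Neurod1*, and the TPM ratio of *Neurod1* to *Neurod2* was 7.18 there, 25.1 in GB359 and 20.5 in GB370. In controls this ratio was 2.32 to 3.18.

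*Pax6* (Entrez 18508, chr2:105668896-105698410) encodes a paired-box homeodomain factor present in GCPs and in mature granule neurons. It had 95.0, 156 and 133 TPM in the tumors and 55.5 to 75.5 TPM in controls. All tumors were above all controls, but the log2 fold change of 0.89 (SE 0.15, limma adjusted p = 3.75e-04) was under the minimum of 1, so it was not called. It passed that minimum under quantile normalization, with Brca2-mut;Trp53-WT controls alone and without tumor GB344, where it was 1.09 (limma adjusted p = 3.14e-05, and 2.68e-05 to 0.00820 over all alternatives tried). *Pax6* overlaps *Pax6os1* and *Elp4* in the annotation, and reads of overlapping genes on opposite strands cannot be told apart without strand.

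The ZIC proteins are zinc finger factors of the granule lineage from GCPs to adult neurons. *Zic1* (Entrez 22771, chr9:91358058-91365768) had 454, 638 and 671 TPM in the tumors and 475 to 666 TPM in controls, so the ranges overlapped. Its log2 fold change was −0.01 (SE 0.14, limma adjusted p = 0.958). *Zic2* (Entrez 22772, chr14:122475384-122480328) had 188, 236 and 218 TPM in the tumors and 229 to 285 TPM in controls. Tumors GB344 and GB370 were below every control and GB359 was within their range, with a log2 fold change of −0.31 (SE 0.09, limma adjusted p = 0.0129) that was not called. *Zic1* overlaps its neighbor *Zic4* in the annotation, so a part of the reads of this pair may be divided between them.

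**Figure D2:**
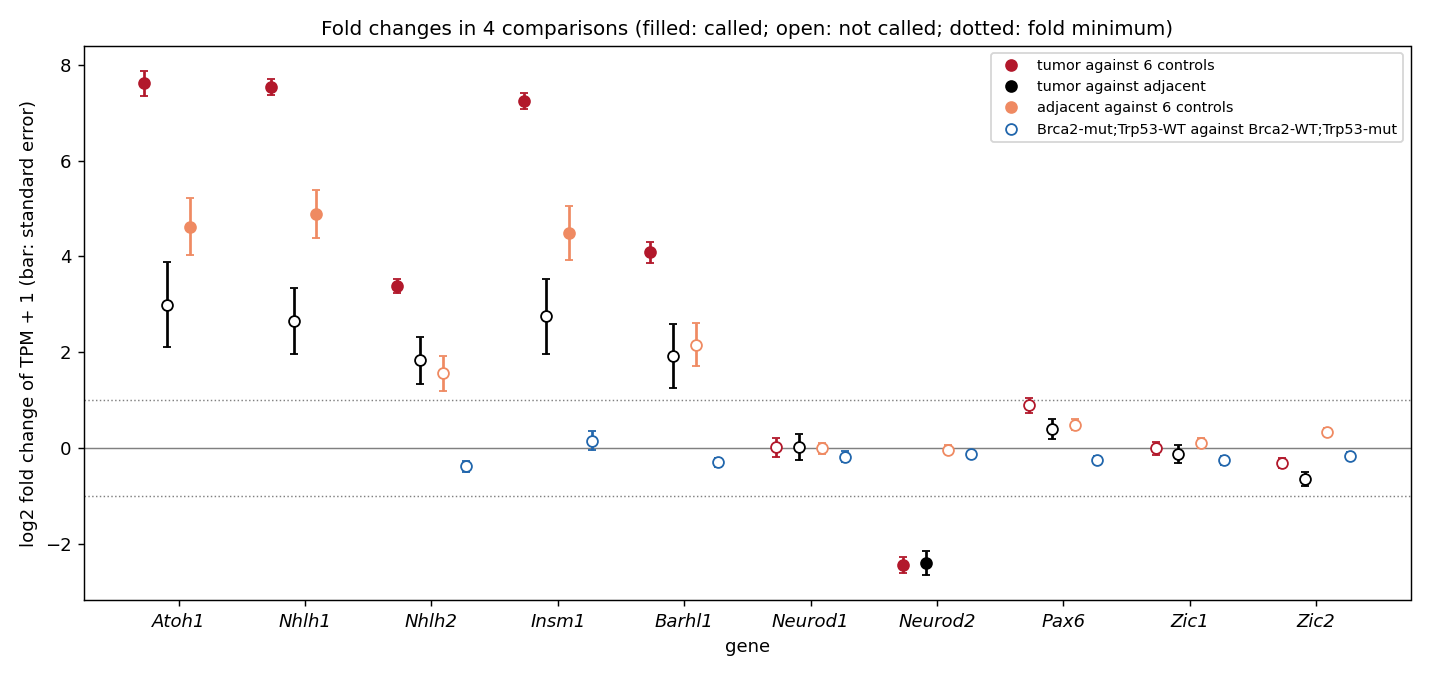
Points are log2 fold changes of TPM + 1 with standard errors for 10 genes in 4 comparisons, filled where the gene was called, and dotted lines mark the minimum of 1. *Atoh1*, *Nhlh1* and *Insm1* stand above 7 against the controls, *Neurod2* is the member below −2 in both comparisons of the tumors, and *Atoh1* and *Nhlh1* have no point between the control genotypes because they were not tested there.

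The order of levels in tumors differed from that in controls. By mean TPM, *Zic1* was first, followed by *Insm1*, *Neurod1* and *Atoh1*, and the range of each overlapped that of the next. *Atoh1*, *Barhl1*, *Nhlh1* and *Zic2* had means of 227, 225, 215 and 214 TPM, with overlapping ranges. *Pax6* and *Nhlh2* came next, overlapping each other but not *Zic2*, and *Neurod2* was last, with a range below that of every other member. *Atoh1* moved from rank 19038 of 24091 genes in controls to 609 in tumors, and *Insm1* from 14417 to 258.

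Tumor GB344 held the lowest tumor level of *Atoh1*, *Nhlh1*, *Nhlh2*, *Insm1*, *Barhl1*, *Neurod1*, *Pax6*, *Zic1* and *Zic2*, and the highest level of *Neurod2*. Leaving it out changed no direction among the members that were called, and it raised the log2 fold change of *Atoh1* to 8.02, the highest of its values with 1 library left out.

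Other bHLH factors and partners were examined from lists chosen for their roles. Earlier results of these data were known at that choice, so the counts called per list are a description. Of 13 other proneural factors, 7 were tested, 3 were called higher and 2 lower, with a median log2 fold change of 0.01. *Olig3*, which marks the rhombic lip where GCPs arise, rose by 5.36 (SE 0.34, limma adjusted p = 2.27e-07), and its tumor levels of 22.8, 78.3 and 78.6 TPM stood above a control maximum of 0.458. *Neurod6* rose by 2.60 and *Neurod4* by 2.52, while *Atoh7*, a proneural factor of the retina, fell by 3.13. *Olig3* and *Neurod4* were below 1 TPM in all 6 controls and entered the test through the tumors, so they had to be higher, and of the 3 called higher only *Neurod6* was not fixed in this way. The spread of *Atoh7* was 5.44 to 7.10 TPM in tumors and 44.6 to 84.4 TPM in controls.

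Among the 3 E proteins, the dimer partners of ATOH1 and NEUROD1, *Tcf3* was called higher, with a log2 fold change of 2.20 (SE 0.11, limma adjusted p = 5.98e-08), and 128 to 147 TPM in tumors against 23.8 to 33.2 in controls. *Tcf12* and *Tcf4* had log2 fold changes of 0.85 and 0.84, under the minimum. Of 10 HLH factors of the HES, HEY and ID families, 4 were called higher and 2 lower, with a median of 0.85. *Hey1* rose by 1.87, *Hes6* by 1.46 and *Hes1* by 1.41, and *Id4*, which is abundant in astrocytes, fell by 3.77.

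The closest relatives of the other members did not all follow them. *Zic4* rose by 1.24 (SE 0.08, limma adjusted p = 1.97e-07), and *Zic5* had a log2 fold change of 0.14 (limma adjusted p = 0.206). *Barhl2* had a log2 fold change of 0.41 (SE 0.26, limma adjusted p = 0.175) where *Barhl1* was called, and its levels of 27.8, 62.7 and 74.7 TPM in tumors overlapped the 33.3 to 46.2 TPM of controls. *Insm2* rose by 2.87 (SE 0.50, limma adjusted p = 4.12e-04), and its tumor levels of 2.40, 24.6 and 4.26 TPM stood above a control maximum of 0.0962. It too was below 1 TPM in all controls and had to be higher to enter the test.

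In each library the balance within these families was read as a TPM ratio, which describes unequal change and was not tested. *Barhl1* to *Barhl2* was 5.24, 5.43 and 2.54 in tumors GB344, GB359 and GB370 and 0.292 to 0.335 in controls, so the paralog in excess was *Barhl1* in tumors and *Barhl2* in controls. *Zic1* to *Zic4* was 4.71 to 6.69 in tumors and 11.99 to 16.2 in controls. *Zic1* to *Zic2* was 2.42 to 3.07 in tumors and 2.03 to 2.37 in controls, a gap narrower than the spread among tumors.

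**Figure D3:**
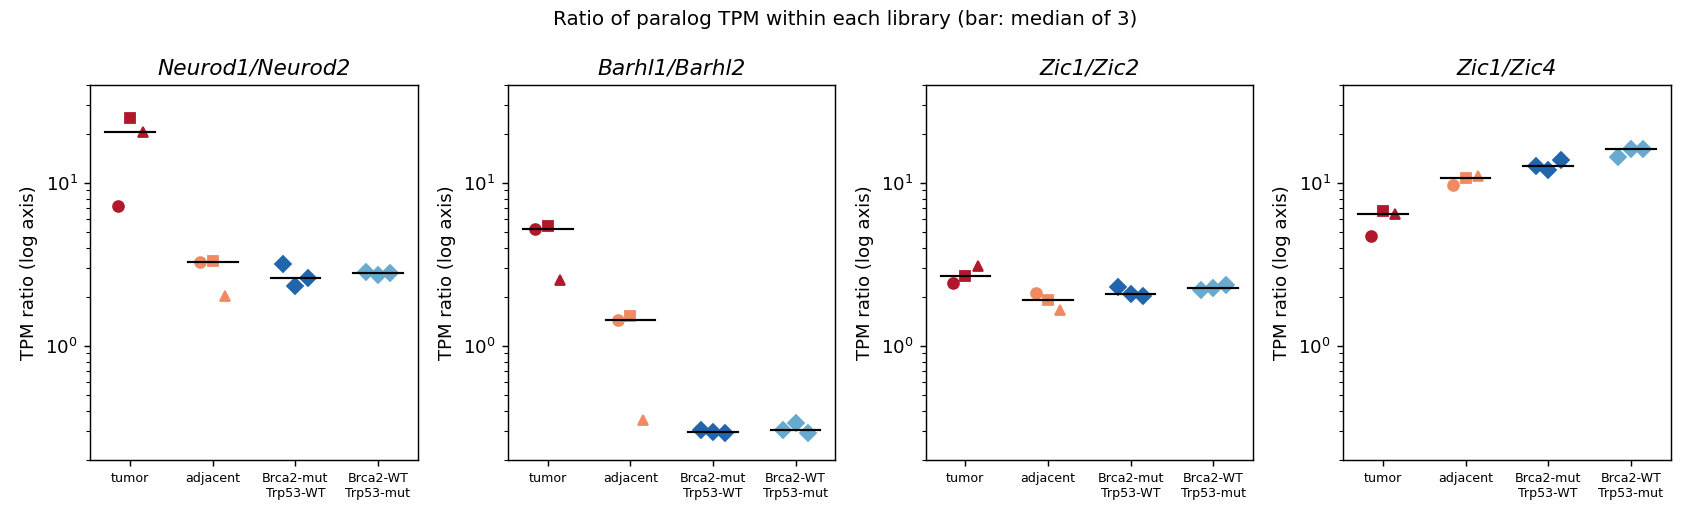
Each panel plots the TPM ratio of a pair of paralogs in 12 libraries on a log axis, with bars for the median of 3 and the mouse symbols of the plot of levels. *Neurod1* to *Neurod2* and *Barhl1* to *Barhl2* lie higher in all 3 tumors than in any control, and *Zic1* to *Zic4* lies lower.

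Of 14 other homeobox and patterning factors, 13 were tested, 4 were called higher and 4 lower, with a median of 0.41. *Lhx2* rose by 3.50, *Uncx* by 2.04 and *En1* by 1.79, and *Pax2*, a factor of cerebellar inhibitory interneuron precursors, fell by 2.85. *Lhx2* reached 1 TPM in no control except GB512 and entered the test through the tumors, so its direction was largely fixed. Of the 4 called lower, *Pax2*, *Meis2* and *Lmx1a* were below 1 TPM in all 3 tumors and entered the test through the controls, so they had to be lower, and the same holds for *Pax2* against adjacent tissue. Of 8 neurogenic zinc finger genes and corepressors grouped with *Insm1*, 3 were called higher and 2 lower, with a median of 0.15, and 1 of the 3 was *Insm2*. *Rcor2*, a corepressor of the CoREST family, rose by 5.84 (SE 0.22, limma adjusted p = 1.77e-08), from 2.02 to 5.18 TPM in controls to 202 to 308 TPM in tumors. *Scrt2* rose by 1.95 and *Scrt1* fell by 1.84, so these related repressors moved in opposite directions.

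Markers of earlier and later stages of the lineage were counted next. Of 8 GCP and migrating granule cell markers, 4 were called higher and 1 lower, with a median of 0.79. *Sfrp1* rose by 5.93, *Dcx*, a microtubule protein of migrating neurons, by 4.63 and *Gli1*, a transcription factor and target of SHH signaling, by 3.35, while *Stmn2* fell by 1.27. Of 10 mature granule cell markers, 9 were called lower and 0 higher, with a median of −3.66. *Gabra6*, a GABA receptor subunit of mature granule neurons, fell by 5.01, *Cbln3* by 4.64, *Grm4* by 4.49 and *Slc17a7* by 3.97. The summed TPM of these 10 markers was 434 in tumor GB344, 1149 in GB359 and 1009.9 in GB370, so the tumor with the most *Neurod2* had the least of the mature markers. The part of granule cell content in the level of *Neurod2* was not tested.

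All 10 proliferation genes were called higher, with a median log2 fold change of 5.29. They were led by *Top2a* with 6.71, *Mki67* with 6.06, *Aurkb* with 5.61 and *Ccna2* with 5.51. *Mki67*, *Top2a*, *Cdk1*, *Ccnb1*, *Bub1*, *Aurkb* and *Foxm1* reached 1 TPM in no control except GB512. These genes entered the test through the tumors, so their direction was largely fixed. *Ccna2*, *Birc5* and *Plk1* were above 1 TPM in every control and were not fixed in this way. Markers of other cerebellar cells differed by cell type. All 6 Purkinje cell markers were called lower, with a summed level of 89.6 to 401 TPM in tumors, 5070.2 to 6504 in adjacent cerebella and 5772 to 9622 in controls. All 5 markers listed for interneurons were called lower (94.9 to 185 TPM in tumors, 1541 to 2051 in adjacent cerebella and 1945 to 2833 in controls). Among them, *Slc6a5* was below 1 TPM in every tumor and entered the test through the controls, so it had to be lower. *Pvalb* gave 1279 to 2011 TPM of the control sums. Whether the levels on this list came from interneurons or from Purkinje cells was not tested. All 6 oligodendrocyte markers were called lower as well (95.7 to 318, 1717 to 4644 and 3455 to 5319 TPM). Of 6 markers of astrocytes and Bergmann glia, 5 were called lower, with 284 to 527, 1311 to 1400.3 and 1377 to 1715 TPM in the same 3 sets of libraries. Of 6 microglial markers, 1, *C1qa*, was called higher, with sums of 214 to 370.1 TPM in tumors, 159 to 269 in adjacent cerebella and 132 to 216 in controls. Summed markers of unipolar brush cells were low as well (4 of 5 called lower, 12.9 to 53.1 TPM in tumors and 262 to 358 in controls). So were those of endothelium (3 of 5, 99.2 to 169 and 197 to 234) and erythroid cells (2 of 2, 37.8 to 247 and 462 to 655). The endothelial markers did not all fall. *Cldn5* was 57.5 to 84.3 TPM in tumors and 36.2 to 50.5 in controls (log2 fold change 0.58, limma adjusted p = 0.00296). *Pecam1* had a log2 fold change of −0.24 (limma adjusted p = 0.181). The unipolar brush cell markers called lower include *Lmx1a*, which had to be lower for the reason given above. The part of these cell types in the levels of the members was not tested.

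The comparison of the tumors with the adjacent cerebella of the same mice holds the labelled genotype constant. It does not hold somatic changes constant, since the study found *Ptch1* mutations in every mouse tumor it sequenced. Its main fit did not pair the libraries by mouse. Of the 10 members, 0 were called higher and *Neurod2* was called lower, where 4.76% of 15845 genes were called higher and 18.0% lower. With limma, 5 members were higher at an unadjusted p under 0.05 and 2 were lower, against 21.6% and 35.4% of all genes tested. The median log2 fold change of the members was 1.11 and that of all genes −0.14. The 5 members *Atoh1*, *Nhlh1*, *Insm1*, *Nhlh2* and *Barhl1* had all tumor values above all adjacent values, as had 23.7% of all genes tested, and *Neurod2* and *Zic2* had all tumor values below them, as had 38.9%.

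*Atoh1* had 59.4, 50.5 and 4.997 TPM in the adjacent cerebella. *Nhlh1* had 77.4, 45.9 and 9.28 TPM there, and *Nhlh2* 75.5, 32.2 and 16.4 TPM. *Insm1* had 159, 102 and 15.6 TPM and *Barhl1* 86.4, 106 and 17.9 TPM. GB370 had the lowest adjacent level of all 5 genes, and GB344 the highest of all but *Barhl1*. The gap between tumor and adjacent tissue therefore differed between mice. On the log2 scale *Atoh1* was higher in the tumor by 0.99 in GB344, 2.25 in GB359 and 5.74 in GB370, and *Insm1* by 1.28, 1.92 and 5.04. *Nhlh1* differed by 1.002, 2.45 and 4.50, *Barhl1* by 0.75, 1.68 and 3.34, and *Nhlh2* by 0.63, 2.06 and 2.80. In the unpaired fit, SE and p rest on the spread of libraries within each group, not on that of these differences within mice. The mean log2 fold changes were 2.99 for *Atoh1* (SE 0.89, limma adjusted p = 0.0283) and 2.75 for *Insm1* (SE 0.78, limma adjusted p = 0.0243). They were 2.65 for *Nhlh1* (SE 0.70, limma adjusted p = 0.0185), 1.92 for *Barhl1* (SE 0.67, limma adjusted p = 0.0485) and 1.83 for *Nhlh2* (SE 0.48, limma adjusted p = 0.0190). All 5 were called when the spread was shared over all 4 groups, and 2 of them were called without the adjacent library of GB344 and 2 without that of GB370.

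*Neurod2* moved the other way. Its adjacent levels were 120.1, 125 and 159 TPM, against 128 to 147 TPM in controls, and it fell by 2.39 on the log2 scale in the tumors (SE 0.26, limma adjusted p = 5.40e-04). The difference was −1.69 in GB344, −2.50 in GB359 and −2.996 in GB370, so GB344 had the smallest gap for this gene too. *Zic2* had 304, 331 and 369.8 TPM in the adjacent libraries, above every tumor, with a log2 fold change of −0.65 (SE 0.14, limma adjusted p = 0.00895) that was under the fold minimum. *Pax6* (111, 93.5 and 82.2 TPM in adjacent tissue), *Neurod1* (393, 416 and 321) and *Zic1* (641, 638 and 614) overlapped the tumors, with log2 fold changes of 0.40 (SE 0.21, limma adjusted p = 0.155), 0.02 (SE 0.26, limma adjusted p = 0.953) and −0.12 (SE 0.18, limma adjusted p = 0.595). *Neurod1* and *Pax6* were higher in the tumor in 2 of 3 mice and *Zic1* in 1.

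Among the related factors and stage markers, *Tcf3* and *Gli1* were called higher, with log2 fold changes of 1.34 and 2.01. The call of *Tcf3* was lost without tumor GB370 or adjacent GB359 (limma adjusted p = 0.0129 and 0.0113), and that of *Gli1* without tumor GB344, GB359 or GB370 or adjacent GB359 (0.0105, 0.0234, 0.0256 and 0.0145). *Atoh7* fell by 3.28, *Atoh8* by 1.27, *Id4* by 3.32, *En2* by 1.56, *Pax2* by 2.87 and *Scrt1* by 1.52. Among these, the call of *Atoh8* was lost without tumor GB359 or GB370 or adjacent GB359 (limma adjusted p = 0.0102, 0.0114 and 0.0124), and the others were called with any 1 library left out. Of the mature granule cell markers, 8 of 10 were called lower, and 7 of these were called with any 1 library left out. The exception was *Cbln1*, whose call was lost without tumor GB370 or any 1 adjacent library (limma adjusted p of 0.0145 to 0.0251). Of the proliferation genes, 0 of 10 were called, with a median log2 fold change of 2.54, so they shared with the raised members a wide spread between the adjacent libraries.

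The adjacent cerebella were next set against the 6 controls, which asks how far tissue labelled as normal stood from tumor-free tissue. This comparison shares its controls with the first and its adjacent libraries with the second. *Atoh1*, *Nhlh1* and *Insm1* were called higher and 0 members lower, where 0.224% of 16091 genes were called higher and 0.0124% lower. With limma, 7 members were higher and 0 lower at an unadjusted p under 0.05, against 22.1% and 12.4% of all genes. *Atoh1* and *Nhlh1* again entered the test through the libraries with the higher level, and of the other 8 members 1 was called, with a median of 0.41 against 0.07 for all genes tested. The log2 fold changes were 4.62 for *Atoh1* (SE 0.60, limma adjusted p = 0.00883), 4.88 for *Nhlh1* (SE 0.50, limma adjusted p = 0.00537) and 4.49 for *Insm1* (SE 0.57, limma adjusted p = 0.00883).

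These 3 calls lay close to the threshold. The number of members called higher was 0 without the adjacent library of GB344, 1 without that of GB359 and 5 without that of GB370, where *Barhl1* and *Nhlh2* joined with log2 fold changes of 2.94 and 2.07. It was 0 without control GB361, GB508, GB512, GB519 or GB520 and 1 without control GB517. Over the same 9 omissions the log2 fold changes ranged from 4.02 to 5.69 for *Atoh1*, 4.27 to 5.74 for *Nhlh1* and 3.84 to 5.48 for *Insm1*. Even in GB370, the adjacent library with the lowest levels, *Atoh1* at 4.997 TPM, *Nhlh1* at 9.28 and *Insm1* at 15.6 were above every control.

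*Barhl1* and *Nhlh2*, with all libraries, had log2 fold changes of 2.16 (SE 0.44, limma adjusted p = 0.0181) and 1.56 (SE 0.37, limma adjusted p = 0.0249), and each adjacent library was above all controls. The adjacent levels of *Pax6* and *Zic2* also lay above all controls, which made 7 of 10 members, and 11.7% of all genes tested lay above all controls in this way. *Pax6* and *Zic2* had log2 fold changes of 0.49 (SE 0.12, limma adjusted p = 0.0262) and 0.33 (SE 0.09, limma adjusted p = 0.0316) that were not called. *Zic2* had its highest values of the series in adjacent tissue. Among the lists of related factors and stage markers, *Rcor2* was the gene called, with a log2 fold change of 3.58 (limma adjusted p = 0.00883) and adjacent levels of 116, 78.1 and 17.8 TPM, and the 10 proliferation genes, with a median of 2.69, were not. The call of *Rcor2* lay as close to the threshold as those of the members: it held without adjacent GB370 and was lost without any 1 of the other 8 libraries (limma adjusted p of 0.0146 to 0.0387). *Zic1*, *Neurod1* and *Neurod2* overlapped the controls, with log2 fold changes of 0.11, −0.01 and −0.04 and limma adjusted p of 0.467, 0.975 and 0.802.

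To put the 5 raised genes on a common scale, the adjacent level above the control mean was expressed as a percentage of the tumor level above the control mean in the same mouse. It was 40.8% to 60.6% in GB344 with a median of 49.9%, 16.7% to 28.6% in GB359 with a median of 20.7%, and 1.54% to 4.87% in GB370 with a median of 3.53%. For *Atoh1* alone it was 49.9%, 20.7% and 1.54%. The 10 proliferation genes gave 33.9% to 57.4%, 21.7% to 25.2% and −0.07% to 2.23% in the same mice, with medians of 41.1%, 23.3% and 1.75%. The order of the mice was the same for both sets of genes. The part that tumor cells in the adjacent tissue have in these levels was not tested.

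**Figure D4:**
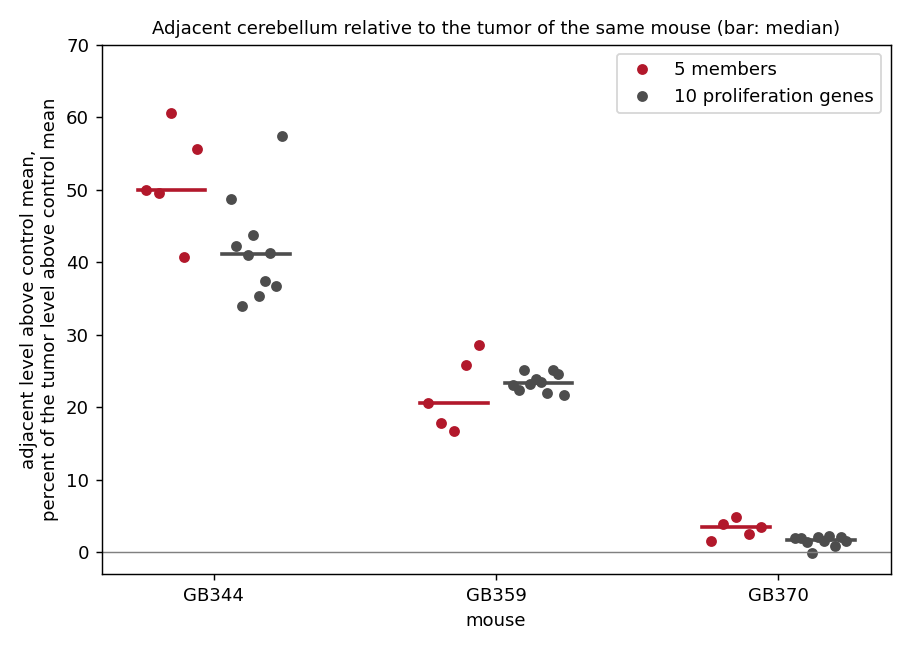
Points are single genes, 5 raised members and 10 proliferation genes, in the adjacent cerebellum of 3 mice, as the level above the control mean in percent of the same excess in the tumor of that mouse. Bars are medians, which fall from GB344 to GB359 to GB370 for both sets, with 49.9%, 20.7% and 3.53% for the members.

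The control genotypes were compared because they were pooled above. Of 8 members tested, 0 were called higher or lower in Brca2-mut;Trp53-WT against Brca2-WT;Trp53-mut cerebella, where 0.0128% of 15575 genes were called higher and 0.0449% lower. With limma, 4 members were lower and 0 higher at an unadjusted p under 0.05, against 15.3% and 4.78% of all genes tested. *Atoh1* and *Nhlh1* were below the minimum level in all 6 libraries and were not tested. The members that differed most were *Nhlh2*, *Barhl1*, *Zic1* and *Pax6*, with log2 fold changes of −0.38, −0.30, −0.26 and −0.25 (limma adjusted p of 0.153, 0.166, 0.174 and 0.170), and all genes had a median of −0.07. Each of these 4, and *Neurod2* and *Zic2*, was lower in every Brca2-mut;Trp53-WT library than in every Brca2-WT;Trp53-mut library, as were 20.3% of all genes tested. For *Nhlh2* the levels were 11.2, 8.36 and 9.11 TPM in GB361, GB508 and GB512 against 12.6 to 12.7 TPM in the other genotype. *Insm1* had a log2 fold change of 0.16, which was −0.03 without GB512. Summed choroid plexus markers were 3970.6 to 5195 TPM in Brca2-WT;Trp53-mut and 18.0 to 879 TPM in Brca2-mut;Trp53-WT libraries, so that tissue content and genotype cannot be told apart here.

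The 5 genes whose pattern was most like *Atoh1* were found by Pearson's r of log2(TPM + 1) over the 12 libraries among 16498 genes. Since the libraries fall into groups far apart in level, r mostly describes the gaps between groups, and it is given without a test. They were *Mdga1* (r = 0.997), *Insm1* (0.996), *Adamts14* (0.996), *Nhlh1* (0.996) and *Igfbpl1* (0.995), so 2 of the 5 were members. *Mdga1*, which encodes a cell surface protein of the immunoglobulin superfamily, had 101, 171 and 150.1 TPM in tumors, 58.1, 56.4 and 20.6 in adjacent cerebella and 6.25 to 8.89 in controls. *Igfbpl1* had 175, 322 and 247 TPM in tumors, 103, 99.2 and 10.2 in adjacent cerebella and at most 0.537 in controls. *Adamts14* had 26.6, 35.6 and 58.2 TPM in tumors, 13.5, 9.98 and 2.26 in adjacent cerebella and at most 0.427 in controls. Among the other members, *Barhl1* ranked 34 (r = 0.983), *Nhlh2* 199 (0.969) and *Pax6* 1296 (0.919), *Neurod1* and *Zic1* had r of 0.15 and 0.14, *Zic2* had −0.29 and *Neurod2* had −0.81.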

How the data were processed

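RNA was poly(A) selected, and libraries were made with an NEB Ultra II kit. The authors quantified transcripts with Salmon 0.8.1 on mm10 and summed them to genes, and the values they deposited are TPM per gene for 24091 genes, with 0 sample columns left unused. Read counts were not used here, so depth is unknown and no counting error or detection floor is given.

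TPM were transformed to log2(TPM + 1). A gene entered a fit if 3 or more of its libraries reached 1 TPM. Fits were made with limma 3.58.1 (lmFit, then eBayes with trend) in R 4.3.3 on only the groups compared, and p-values were adjusted over all genes tested by Benjamini-Hochberg. The thresholds, an adjusted p of 0.01 and a log2 fold change of 1, are those of the study. The script was tested on simulated data. Each library of a group is from a different mouse. When a library was left out, the set of genes tested stayed the same. Groups follow the labelled tissue and genotype. Members and lists were chosen with earlier results of these data known. Named genes are the 10 members, up to 4 called genes per list with the largest change in tumors against controls, others where a small count needed names, and the 5 genes most like *Atoh1*. *Tcf4*, *Tcf12*, *Zic5* and *Barhl2* were named after their values were seen. One listed gene is not reported here. Gene positions and promoters are from RefSeq GRCm38.p6, the patch release of mm10.

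Tumor and adjacent libraries of a number come from the same mouse, and their deviations from the group means had correlations of 0.228, 0.148 and 0.148. Alternatives were other pseudocounts (0.1, 0.01), the filter dropped or raised to 5 TPM, quantile normalization, median-of-ratios scaling, eBayes without trend, all groups in 1 fit, an adjusted p under 0.05 without a fold minimum, a single control genotype, the mouse as replicate block, and each library left out. Leaving out libraries for the listed genes called against or in adjacent tissue was chosen after seeing the data. Ratios, ranges and r used Python 3.11.15 with pandas 2.3.3 and numpy 2.4.6, and plots matplotlib 3.10.9.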

Additional observations from a re-analysis of the deposited data

How the results depend on the processing

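The calls of *Insm1*, *Nhlh2*, *Barhl1* (higher) and *Neurod2* (lower) against the controls held in all 20 alternatives, and that of *Neurod2* against adjacent cerebella in all 16. Those of *Atoh1* and *Nhlh1* against the controls held in all 20 as well. Both were below 1 TPM in all 6 controls and had to differ, so this says nothing about the processing. With the mouse as replicate block, 0 members were called higher and 1 lower in tumors against adjacent cerebella, as without it, and each of the 10 members kept its call. Over all genes, 701 were called higher and 2841 lower with the block, against 755 and 2852. With an adjusted p under 0.05 and no fold minimum, 2 members were called lower against controls, 5 higher and 2 lower against adjacent cerebella, and 7 higher in adjacent against control cerebella. All 4 groups in 1 fit gave 5 called higher in tumors against adjacent cerebella. In adjacent against control cerebella, 1 member was called higher without the filter and 1 without the trend. Leaving out 1 library gave 0 to 2 members called higher in tumors against adjacent cerebella and 0 to 5 in adjacent against control cerebella.

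Values near 0 changed sign. *Neurod1* in tumors against controls was −0.077 with the Brca2-WT;Trp53-mut controls alone and −0.23 to 0.28 with 1 library left out. *Zic1* in that comparison was 0.073 with median-of-ratios scaling, 0.052 with quantile normalization, 0.12 with the Brca2-mut;Trp53-WT controls alone and −0.11 to 0.17 with 1 library left out. Against adjacent cerebella *Zic1* was 0.0099 with median-of-ratios scaling, and with 1 library left out *Zic1* was −0.23 to 0.052 and *Neurod1* −0.22 to 0.29. In adjacent against control cerebella *Neurod1* was 0.022 with quantile normalization and −0.083 to 0.10 with 1 library left out, and *Neurod2* was −0.16 to 0.039. Between control genotypes *Insm1* was −0.032 to 0.33. The cause was not tested.

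Quantile normalization shifted the median of all genes by 0.15 in tumors against controls, 0.26 in tumors against adjacent cerebella and −0.10 in adjacent against control cerebella, and median-of-ratios scaling by 0.12 in the second. Calls of all genes against adjacent cerebella became 1603 higher and 2192 lower, or 1158 and 2560, against 755 and 2852, and in adjacent against control cerebella quantile normalization gave 41 and 18, against 36 and 2. Between control genotypes, 2 higher and 7 lower became 2 and 2 with median-of-ratios scaling and 2 and 1 with quantile normalization, and calls lower ranged from 0 with a pseudocount of 0.01 to 27 without GB361. With an adjusted p under 0.05 and no fold minimum, all-gene calls were 5165 and 6408 in tumors against controls (2341 and 3489), 2870 and 5110 against adjacent cerebella, 1627 and 897 in adjacent against control cerebella, and 6 and 65 between control genotypes. Against adjacent cerebella, genes called higher were 465 without the filter, 1278 with all groups in 1 fit, 458, 275 and 189 without tumor GB344, GB359 or GB370, and 210 without adjacent GB359. In adjacent against control cerebella they were 4 without the filter, 10 without the trend, 24 with all groups in 1 fit, 55 with median-of-ratios scaling, 564 without adjacent GB370, and 0 to 11 without any other single library. Depth is unknown, so levels near 0 in controls have no counting error.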

Other observations

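Control GB512 differed from the other controls in genes outside the members. Its 10 proliferation genes summed to 58.7 TPM, against 8.25 to 12.1 TPM in the other controls, with *Mki67* at 5.63 TPM against at most 0.343 and *Top2a* at 8.42 against at most 0.686. *Lhx2* was 2.48 TPM in GB512 and at most 0.327 in the other controls. *Atoh1* and *Nhlh1* were 0.0689 and 0.255 TPM in GB512, within or near the range of the other controls, and *Dcx* was 2.62 TPM, within it. These genes were named after their values were seen, and no group test applies to a single library.

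The tumors also differed from each other in factors beside the members. *Hes6* was 170 TPM in tumor GB344 and 65.1 and 63.0 TPM in GB359 and GB370, while *Sfrp1* was 151, 541 and 664 TPM and *Meis1* 61.0, 129.7 and 105 TPM in the same order. *Gabra6* was 8.11, 26.9 and 22.7 TPM. Each is 1 library, so these gaps were not tested.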
